A study of Ambystoma mexicanum with 12 samples.

Results

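The mitochondrial ribosome genes of regenerating axolotl (Ambystoma mexicanum) forelimbs were taken as every gene whose symbol starts with MRPL or MRPS followed by a digit. The rule found 69 genes among the 8639 named genes of the array, 43 of the large subunit (MRPL) and 26 of the small subunit (MRPS) by symbol. MRPL23, MRPL42 and MRPL45 were the 3 genes with 2 probe sets, and each was represented by the probe set of higher mean over the 12 samples.

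The samples were blastemas, the mounds of proliferating cells that form on an amputated limb and rebuild it, and each was measured on 1 Affymetrix array. RA samples came from limbs exposed to retinoic acid, which go on to duplicate along the proximodistal axis. LE135 samples came from limbs exposed to LE135, known as a synthetic compound that blocks a retinoic acid receptor, and these limbs end truncated. DMSO samples came from limbs exposed to the vehicle, which regenerate normally. All 3 groups were juvenile animals of 8.8 cm total length, amputated at the distal end of the zeugopod (lower arm), treated from day 7 to day 14 and sampled on day 14. There were 48 animals, 16 per treatment, and a sample was a pool of 4 limbs, 1 from each of 4 animals. No dose is stated in the sources used here. The comparisons ask whether transcripts of the mitochondrial ribosome differ between limbs with these 3 outcomes.

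The mitochondrial ribosome translates the few proteins encoded by mitochondrial DNA, all of them core parts of the oxidative phosphorylation machinery or its ATP synthase. Its own proteins are encoded in the nucleus, made in the cytosol and imported. Its small subunit reads the messenger RNA, and its large subunit joins the amino acids and releases the chain at the inner mitochondrial membrane. Some of its proteins descend from those of the bacterial ribosome, and others are found only in mitochondria.

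Levels are the deposited log2 values, and a log2 fold change is a difference of group means on that scale. Differences were tested with limma over all 20035 probe sets that were not array controls, with Benjamini-Hochberg adjustment and a threshold of 0.05. Of the 69 genes, 2 had means in the lowest 25% of probe sets, MRPL46 and MRPS18C, at 3.85 and 4.56 against a lower quartile of 4.57. The minimum of each array was between 3.05 and 3.15. DMSO 4 and LE135 4 stood apart: their mean correlations with the other samples of their group were 0.978 and 0.986, against 0.989 to 0.996 in the other 10 samples. Most of the counts and medians below are given with and without these samples. Of the markers of connective tissue fibroblasts, 9 of 10 were measured, and 8 of 10 for epidermis, none with a mean in the lowest 25% of probe sets. In bulk tissue, fewer cells of a type and less RNA per cell cannot be told apart.

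No mitochondrial ribosome gene passed the threshold in any comparison of all 12 samples. In RA against DMSO it was 0 of 69, where 2.64% of all probe sets passed, and the lowest adjusted p was 0.113 (MRPL54). In LE135 against DMSO it was again 0 of 69, against 2.09% of all probe sets, with a lowest adjusted p of 0.104 (MRPS27). In RA against LE135 it was 0 of 69, against 0.02% of all probe sets, with a lowest adjusted p of 0.646 (MRPL49). The moderated F test over the 3 treatments also called 0 of 69, against 2.68% of all probe sets. The unmoderated F test of each probe set called 0 of 69, against 1.55% of all probe sets.

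At an unadjusted p under 0.05 in limma, 9 genes were lower and 0 higher in RA than in DMSO. These were MRPL3, MRPL19, MRPL22, MRPL38, MRPL40, MRPL54, MRPS5, MRPS15 and MRPS31. They made up 13.04% of the 69. Of all probe sets, 14.9% reached that level, 7.37% lower and 7.49% higher. In LE135 against DMSO, 6 genes were lower and 0 higher, 8.70% of the 69. Of all probe sets it was 13.3%, with 7.29% lower and 6% higher. The 6 genes were MRPL3, MRPL19, MRPL38, MRPL54, MRPS15 and MRPS27. In RA against LE135 only MRPL49 reached that level, 1.45% of the 69 against 7.67% of all probe sets. The F test gave 6 such genes, against 14.9% of all probe sets, and the unmoderated F test gave 7, against 14.7%.

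The intervals of the differences were narrow for most of the genes. The 95% interval lay within 1.5-fold in either direction, the study's own fold limit, for 68 of 69 genes in RA against DMSO. The same count held in LE135 against DMSO, and in RA against LE135 it was 69 of 69. Of all probe sets, 79.4%, 80.7% and 82.1% met this bound in the same order of comparisons. The 69 genes were also brighter, with a median level of 9.88 against 6.66 over all probe sets. In RA against DMSO, 98.1% of measured oxidative phosphorylation genes and 100% of cytosolic ribosomal proteins met the bound too. Among the 69, the exception in both drugs was MRPL47, the relative of bacterial ribosomal protein L29. MRPL47 had 8.82, 8.70, 9.38 and 9.34 in RA, 9.07, 9.21, 9.36 and 8.75 in LE135, and 9.54, 9.14, 9.30 and 9.22 in DMSO. Its RA samples fell into a low and a high pair, and all 3 groups overlapped. Its log2 fold change in RA was -0.24 with an interval of -0.62 to 0.14, and in LE135 it was -0.20 with an interval of -0.59 to 0.18.

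**Figure D1:**
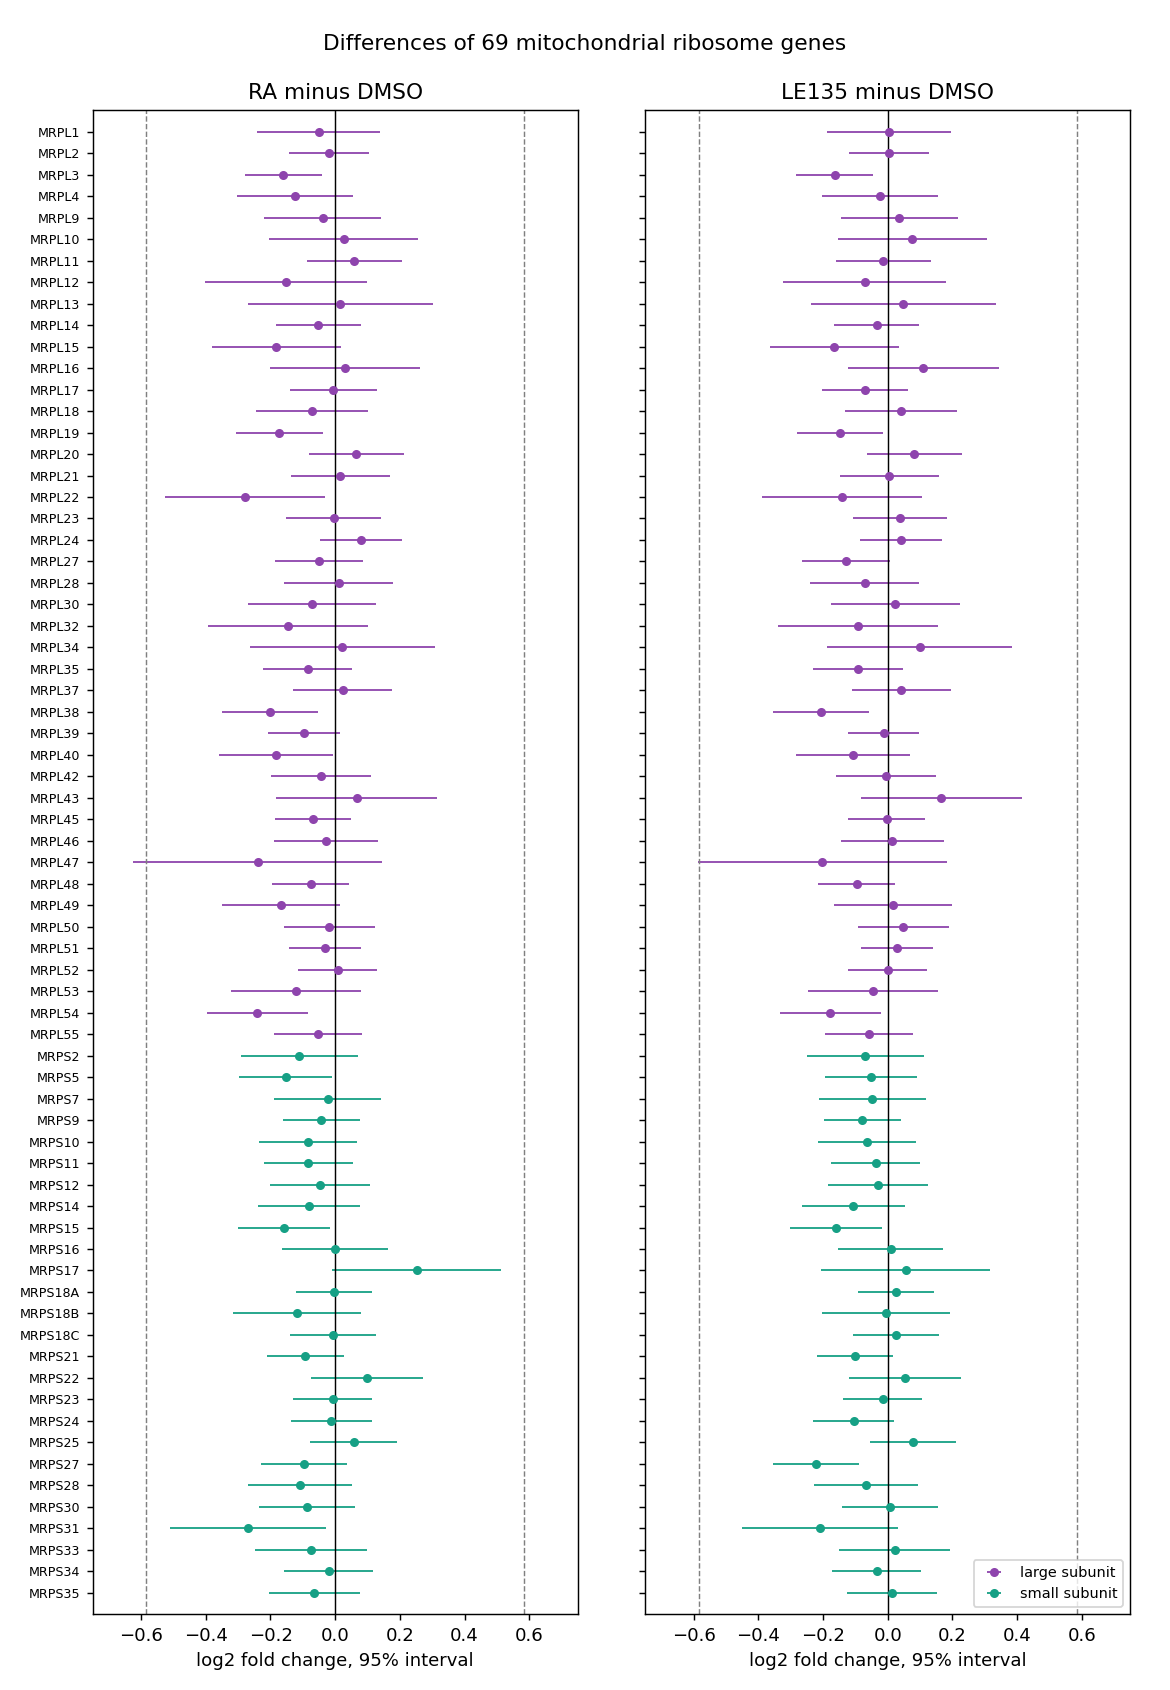
Log2 fold change (x axis) of each of the 69 genes (rows) in RA against DMSO and in LE135 against DMSO, all 12 samples; points are limma estimates and bars their 95% intervals. Estimates run from -0.28 to 0.25 in RA and from -0.22 to 0.17 in LE135, and MRPL47 is the gene whose interval passes 1.5-fold.

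Although no single gene passed, more of the genes lay below DMSO than above it in RA. The median log2 fold change in RA against DMSO was -0.05 over the 69 genes and -0.02 over all named genes. Of the 69 genes, 54 (78.3%) were below 0, as were 55.5% of all named genes. So were 84.9% of the measured genes of oxidative phosphorylation and 80% of mitochondrial translation factors. For mitochondrial ribosome assembly it was 57.1%, and for cytosolic ribosomal proteins 47.4%. In LE135 against DMSO the median was -0.02, against 0.0025 over all named genes, with 40 of 69 (58.0%) below 0, against 49.3%. In RA against LE135 it was -0.03, against -0.01 over all named genes, with 46 of 69 (66.7%) below 0, against 53.9%. These medians are descriptions without a test, and both drugs were set against the same 4 DMSO samples.

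The lower median in RA depended in part on DMSO 4. Without DMSO 4 and LE135 4, the median in RA against DMSO was -0.03, against -0.0084 over all named genes. Then 46 of 69 genes (66.7%) were below 0, against 52.4% of all named genes. In RA against LE135 the median was -0.0091 without the pair, with 40 of 69 (58.0%) below 0, against 52.2%. In LE135 against DMSO 41 of 69 (59.4%) were then below 0, against 48.4%. The median in LE135 against DMSO was -0.02 without the pair, and -0.0011 with DMSO 4 alone left out. Without LE135 4 alone it was -0.04.

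Both subunits had medians below 0 in both drugs. In RA against DMSO the median was -0.05 in the large subunit (31 of 43 genes below 0) and -0.07 in the small subunit (23 of 26 below 0). In LE135 against DMSO it was -0.0044 in the large subunit (23 of 43 below 0) and -0.04 in the small subunit (17 of 26 below 0). In RA against LE135 it was -0.04 in the large subunit and -0.02 in the small subunit. Without DMSO 4 and LE135 4, the medians in RA against DMSO were -0.023 in the large and -0.033 in the small subunit. In LE135 against DMSO they were then -0.016 and -0.015, so by symbol the gap between the subunit medians was gone. Between RA and LE135 they were -0.013 in the large subunit and 0.0058 in the small subunit, whose sign turned. MRPS18A and MRPS30 belong to the large subunit of the mammalian mitochondrial ribosome despite their symbols. With both counted there, the medians of the 45 large and 24 small subunit genes were -0.05 and -0.07 in RA, and -0.0038 and -0.04 in LE135. Without the pair of samples these were -0.023 and -0.033 in RA, and -0.0081 and -0.024 in LE135. With this placement the small subunit median thus stayed below the large one in LE135.

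For each sample, the deviation of every gene from its mean over the 12 samples was averaged over the 69 genes. The means were -0.05, -0.09, 0.02 and 0.0066 in RA, 0.0023, -0.05, -0.0093 and 0.05 in LE135, and 0.02, 0.02, -0.03 and 0.12 in DMSO. DMSO 4 was the highest sample and RA 2 the lowest, and the 3 groups overlapped. By group this was -0.03 ± 0.05 in RA, -0.0024 ± 0.04 in LE135 and 0.03 ± 0.06 in DMSO (SD, n = 4 each), so the group means lay within the spread of single samples. Averaged over all named genes, the 12 samples stayed between -0.01 and 0.01. RMA brings the arrays to a common distribution, so that narrow range is no yardstick for a small set of genes. Several sets of related genes also had DMSO 4 highest. It was at 0.14 for mitochondrial ribosome assembly, 0.13 for mitochondrial translation factors, 0.11 for mitochondrial tRNA synthetases and 0.11 for oxidative phosphorylation. RA 2 was lowest in all of these but oxidative phosphorylation, at -0.07, -0.09 and -0.09. For mitochondrial import and biogenesis regulators DMSO 4 was below 0, at -0.04 and -0.12.

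**Figure D2:**
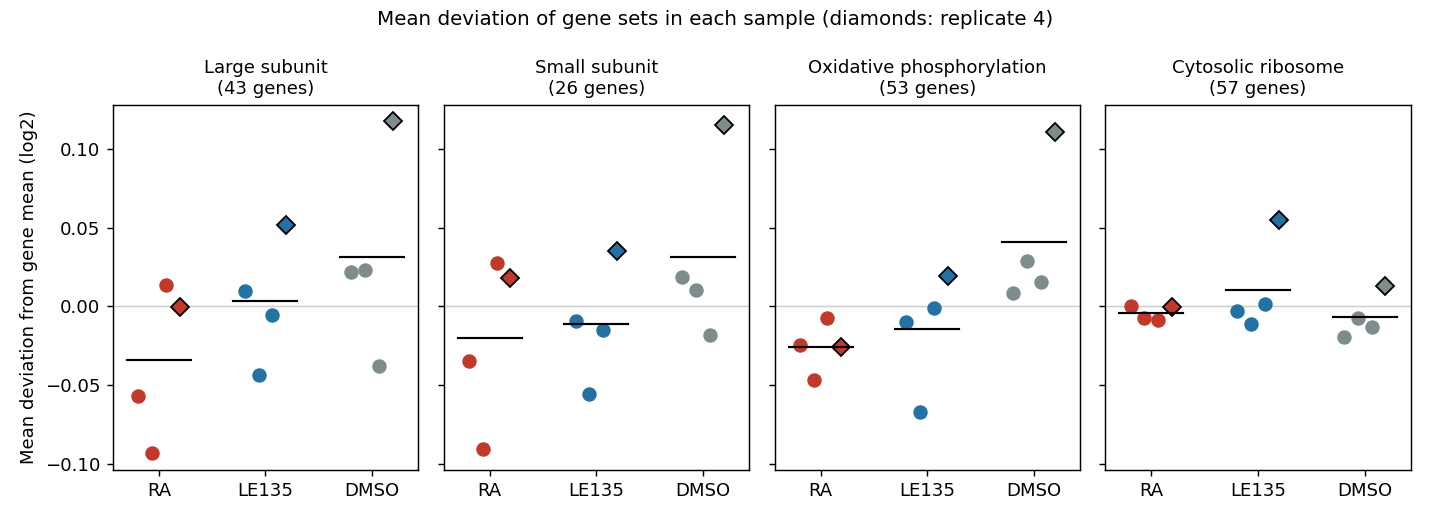
Mean deviation of 4 gene sets from their gene means (log2, y axis) in each RA, LE135 and DMSO sample; diamonds are replicate 4. The sets are the large subunit, the small subunit, oxidative phosphorylation and the cytosolic ribosome. In each of the subunits DMSO 4 is highest at 0.12 and RA 2 lowest at -0.09, and the treatments overlap.

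The large and small subunits deviated alike from sample to sample. The mean deviation of the large subunit minus that of the small subunit lay between -0.02 and 0.02 in all 12 samples. It was below 0 in the 4 RA samples (-0.022 to -0.0025) and above 0 in the 4 LE135 samples (0.0098 to 0.019), while the DMSO samples spanned -0.02 to 0.01. The mean was -0.014 ± 0.0085 in RA, 0.014 ± 0.0042 in LE135 and -0.00025 ± 0.014 in DMSO (SD, n = 4 each). RA and LE135 did not overlap, and no test was made of this difference.

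A few samples held the extremes for many of these genes. DMSO 4 was the highest of the 12 samples for 30 of the 69 genes (43.5%), against 20.1% of all named genes. RA 2 was the lowest for 20 of 69 (29.0%), against 8.95% of all named genes. DMSO 4 and LE135 4 were together the highest pair of the 12 samples for 27 of 69 genes (39.1%), 18 in the large and 9 in the small subunit. That was so for 16.1% of all named genes. By mean deviation, DMSO 4 and LE135 4 were also the highest pair for assembly (0.14 and 0.09), translation factors (0.13 and 0.08) and tRNA synthetases (0.11 and 0.04). The same held for the citrate cycle and mitochondrial mass (0.08 and 0.06) and for cytosolic ribosomal proteins (0.01 and 0.06). It did not hold for oxidative phosphorylation, DNA and RNA upkeep, import or biogenesis regulators. Gene by gene the pair was not only at the top. DMSO 4 and LE135 4 were the lowest pair for 2 of the 69, MRPL21 and MRPL46, or 2.90%, against 12.2% of all named genes.

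MRPL12, the stalk protein that also binds the mitochondrial RNA polymerase in human cells, had DMSO 4 and LE135 4 as its highest pair. It had 9.54, 9.52, 9.71 and 9.65 in RA, 9.67, 9.63, 9.51 and 9.93 in LE135, and 9.65, 9.68, 9.62 and 10.08 in DMSO. DMSO 4 and LE135 4 were above the other 10 samples, which ran from 9.51 to 9.71 with no separation by treatment. Its log2 fold change in RA was -0.15 (SE 0.11, adjusted p = 0.622), and without the pair of samples it was -0.04.

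MRPL10, which anchors MRPL12 to the large subunit, had 10.19, 10.21, 10.22 and 10.12 in RA, 10.17, 10.17, 10.24 and 10.36 in LE135, and 10.15, 10.04, 9.93 and 10.50 in DMSO. DMSO 2 and 3 were below every RA sample, and DMSO 4 was above all of them. Its log2 fold change in RA was 0.03 with all samples and 0.14 without the pair (adjusted p = 0.198).

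MRPL43, a protein found only in mitochondrial ribosomes, had 10.43, 10.33, 10.36 and 10.25 in RA, 10.43, 10.26, 10.37 and 10.71 in LE135, and 10.18, 10.16, 10.20 and 10.58 in DMSO. Apart from DMSO 4, every DMSO sample was below every RA and LE135 sample. The log2 fold changes were 0.07 in RA and 0.17 in LE135 with all samples, and 0.17 and 0.18 without the pair, none past the threshold. MRPL16, MRPL34 and MRPS33 also had DMSO 4 and LE135 4 as their highest samples.

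Marker lists of other cell types also differed between samples or treatments. In skeletal muscle DMSO 4 was the lowest sample and LE135 4 was in the middle. The mean deviation of 6 measured skeletal muscle genes, of 15 listed, was -2.37 in DMSO 4 and 0.27 in LE135 4, with the other samples between -1.54 (RA 3) and 1.52 (RA 2). For erythrocytes, with 2 of 8 markers measured, DMSO 4 (0.27) and LE135 4 (0.91) were the highest samples. In the same order they had 0.22 and -0.50 for epidermis and -0.04 and -0.28 for cycling cells, each the lowest of its group. They had -0.32 and 0.13 for fibroblasts, 0.47 and 0.22 for cartilage and bone, and -0.05 and -0.15 for macrophages and neutrophils. The mean level of 14 of 15 markers of cycling cells ran from 10.220 to 10.251 in RA, 9.940 to 10.163 in LE135 and 10.175 to 10.471 in DMSO. This mean was lower in every LE135 sample than in any RA or DMSO sample. Taken singly, 8 of 14 markers were wholly below DMSO in LE135 (3.96% of all probe sets). In RA, 7 of 14 were wholly below DMSO (5.79% of all probe sets) and 1 was wholly above (5.54%). Wholly above LE135 in RA were 5 of 14 (3.75% of all probe sets). The 8 epidermal markers averaged 11.3 to 11.4 in RA, 10.9 to 11.4 in LE135 and 11.6 to 11.9 in DMSO, and the 9 fibroblast markers averaged 10.96 to 11.19 in RA, 10.81 to 11.01 in LE135 and 10.48 to 10.83 in DMSO. The epidermal average was higher in every DMSO sample than in any RA or LE135 sample. The fibroblast average was lower in every DMSO sample than in any RA sample. Taken singly, 3 of 8 epidermal markers were wholly below DMSO in RA (5.79% of all probe sets) and 4 of 8 in LE135 (3.96%). Of the fibroblast markers, 5 of 9 were wholly above DMSO in RA (5.54% of all probe sets), and 1 of 9 had a log2 fold change below 0. The part of these cell types in the values of the 69 genes was not tested.

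The large subunit genes furthest below DMSO in RA were MRPL22, MRPL54 and MRPL47. MRPL54, found only in mitochondrial ribosomes, had 9.97, 9.95, 10.10 and 10.06 in RA, 10.04, 10.05, 10.06 and 10.19 in LE135, and 10.41, 10.21, 10.12 and 10.31 in DMSO. The RA samples did not overlap with DMSO, whose lowest sample was close to the highest of RA, and LE135 4 did overlap. The log2 fold change was -0.24 (SE 0.07, adjusted p = 0.113) in RA and -0.18 (SE 0.07, adjusted p = 0.290) in LE135.

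MRPL22, whose bacterial relative lines the exit tunnel, was a dim probe set with 4.89, 4.52, 4.94 and 4.99 in RA, 5.01, 4.88, 4.93 and 5.08 in LE135, and 5.07, 5.33, 4.91 and 5.16 in DMSO. The groups overlapped, and RA 2 was the lowest sample. Its log2 fold change in RA was -0.28 (SE 0.11, adjusted p = 0.260), the most negative of the 69 genes.

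MRPL38, a mitochondria-specific protein of the central protuberance, had 8.46, 8.36, 8.60 and 8.57 in RA, 8.49, 8.58, 8.46 and 8.43 in LE135, and 8.68, 8.79, 8.69 and 8.62 in DMSO. Both drugs were below every DMSO sample. The log2 fold change was -0.20 (SE 0.07, adjusted p = 0.167) in RA and -0.21 (SE 0.07, adjusted p = 0.178) in LE135.

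MRPL3, whose bacterial relative reaches toward the peptidyl transferase centre, had 9.21, 9.16, 9.20 and 9.19 in RA, 9.16, 9.13, 9.26 and 9.19 in LE135, and 9.42, 9.39, 9.35 and 9.24 in DMSO. RA and LE135 lay on top of each other, and DMSO 4 was the DMSO sample nearest to them. The log2 fold change was -0.16 in both RA (SE 0.05, adjusted p = 0.174) and LE135 (SE 0.05, adjusted p = 0.182). MRPL19, another relative of a bacterial protein, had log2 fold changes of -0.17 (adjusted p = 0.193) in RA and -0.15 (adjusted p = 0.311) in LE135.

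Of the small subunit, MRPS27, a pentatricopeptide repeat protein, had the lowest p in LE135. It had 9.16, 9.05, 9.17 and 9.10 in RA, 9.03, 8.94, 9.02 and 8.98 in LE135, and 9.24, 9.22, 9.07 and 9.32 in DMSO. The LE135 samples were below every RA and every DMSO sample, while RA and DMSO overlapped. The log2 fold change was -0.22 (SE 0.06, adjusted p = 0.104) in LE135 against DMSO, -0.10 (adjusted p = 0.529) in RA against DMSO, and 0.13 (adjusted p = 0.691) in RA against LE135.

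MRPS31, found only in mitochondrial ribosomes, had 8.08, 7.996, 8.06 and 8.07 in RA, 7.96, 7.999, 8.06 and 8.43 in LE135, and 8.34, 8.27, 8.13 and 8.55 in DMSO. Every RA sample was below every DMSO sample, and LE135 4 was far above the rest of LE135. Its log2 fold changes were -0.27 (SE 0.11, adjusted p = 0.267) in RA and -0.21 (adjusted p = 0.452) in LE135. MRPS15, the relative of bacterial S15, had log2 fold changes of -0.16 in both RA (adjusted p = 0.275) and LE135 (adjusted p = 0.304). MRPS5, the relative of bacterial S5, had -0.15 in RA (adjusted p = 0.295) and -0.05 in LE135.

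MRPS17, the relative of bacterial S17, was the gene furthest above DMSO in RA. Its mean over the 12 samples, 5.94, was below the median of 6.66 over all probe sets. MRPS17 had 6.10, 5.95, 6.23 and 6.07 in RA, 5.98, 6.06, 6.04 and 5.48 in LE135, and 5.86, 5.77, 5.79 and 5.93 in DMSO. All 4 RA samples and LE135 1 to 3 were above every DMSO sample, and LE135 4 was the lowest of the 12. The log2 fold change was 0.25 (SE 0.12, adjusted p = 0.356) in RA and 0.06 (adjusted p = 0.906) in LE135.

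Counted over the 69 genes, the 4 RA and 4 DMSO samples did not overlap for 9 genes (13.04%), against 11.3% of all probe sets. MRPS17 was the 1 above, where 5.54% of all probe sets were above. The 8 below, where 5.79% of all probe sets were below, were MRPL3, MRPL19, MRPL38, MRPL45, MRPL54, MRPS5, MRPS21 and MRPS31. LE135 and DMSO did not overlap for 3 genes, MRPL38, MRPS15 and MRPS27, all lower, or 4.35% against 7.53% of all probe sets in either direction and 3.96% lower. RA and LE135 did not overlap for MRPS27 (higher, as were 3.75% of all probe sets) and MRPL49 (lower, as were 3.18%), together 2.90% of the 69 against 6.93%. The share wholly below DMSO in RA was 11.6% of the 69, against the 5.79% of all probe sets. Of the 8639 named genes, taken with 1 probe set each like the 69, 621 were wholly below. In either direction RA and DMSO did not overlap for 12.6% of the named genes, against 13.04% of the 69. Without DMSO 4, MRPL16, MRPL23, MRPL34 and MRPL43 were also wholly above DMSO in RA, and the 8 genes below stayed the same. Leaving out a DMSO sample makes it easier for any probe set not to overlap. The share of all probe sets without DMSO 4 was not counted, so nothing is concluded from the added genes.

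**Figure D3:**
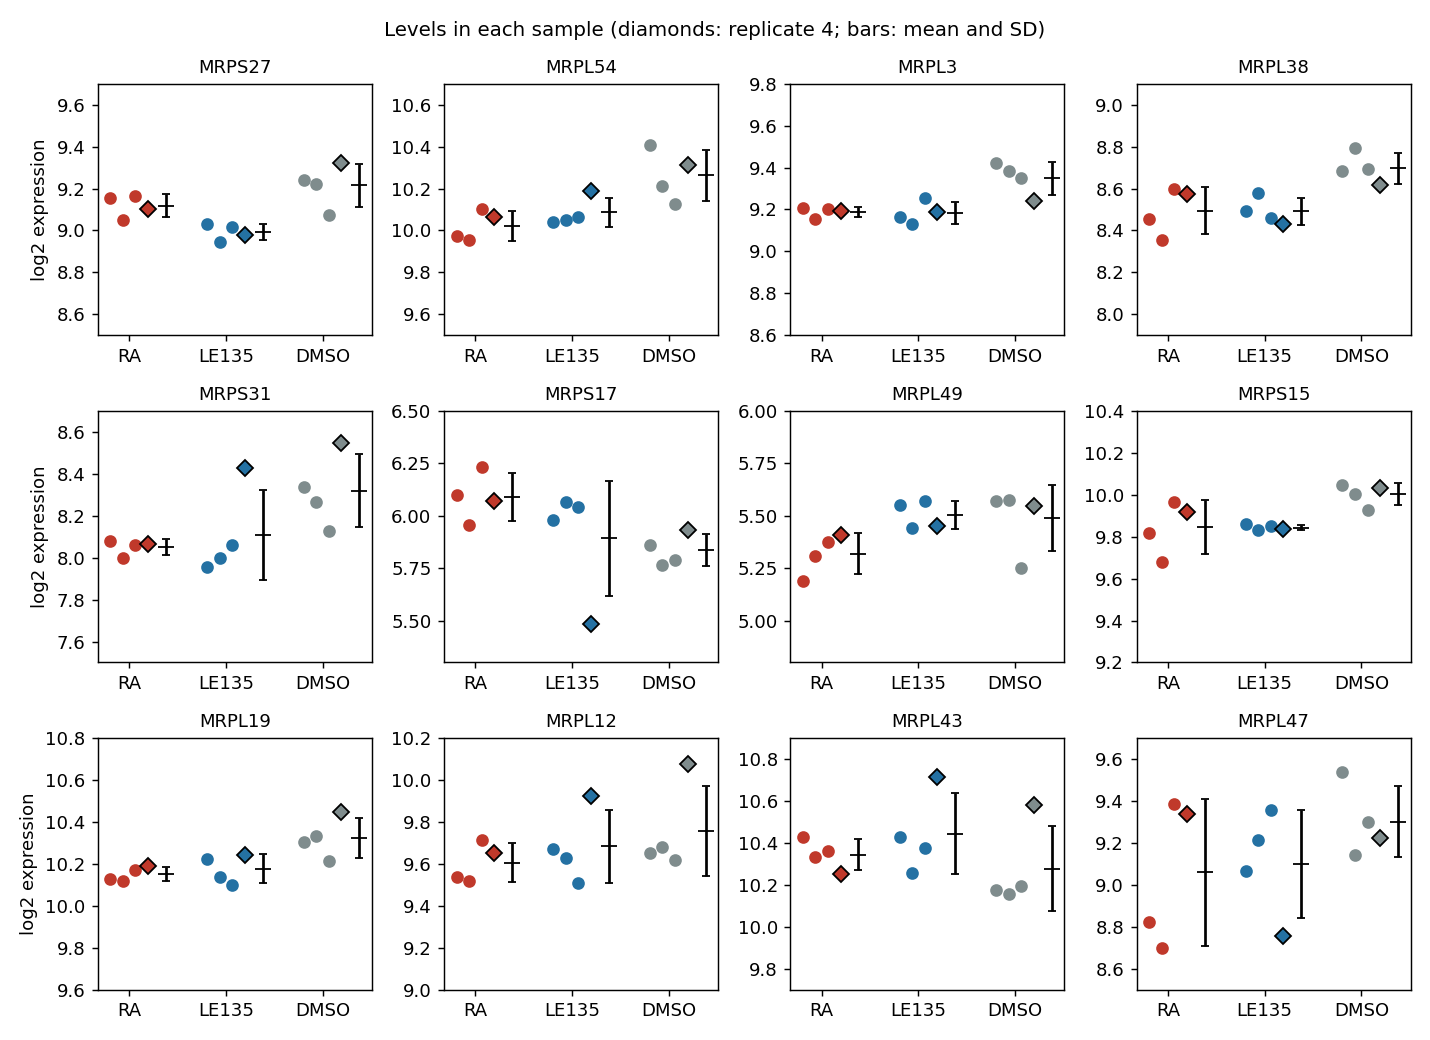
Levels (log2 expression, y axis) of 12 of the genes in each RA, LE135 and DMSO sample; diamonds are replicate 4, and bars are the group mean and SD (n = 4). MRPL12 and MRPL43 have DMSO 4 and LE135 4 on top, and MRPL38 has every DMSO sample above both drugs.

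Leaving out DMSO 4 and LE135 4 brought 2 genes past the threshold, both in RA against DMSO. MRPL3 fell in RA by 0.20 on the log2 scale (SE 0.05, adjusted p = 0.0414), and MRPS17 rose, with 0.28 (SE 0.07, adjusted p = 0.0324). In the same fit 7.64% of all probe sets passed, 3.51% lower and 4.12% higher, a larger share than 2 of 69. In LE135 against DMSO it was 0 of 69, against 5.13% of all probe sets, and the lowest adjusted p was 0.0594 (MRPL3). In RA against LE135 it was 0 of 69, against 0.215%, with a lowest adjusted p of 0.401, and the F test called 0 of 69, against 7.38%. At an unadjusted p under 0.05 there were then 11 genes in RA against DMSO (7 lower, 4 higher), 10 in LE135 against DMSO (7 lower, 3 higher) and 1 in RA against LE135. Those shares were 15.9%, 14.5% and 1.45% of the 69, against 23.7%, 20.9% and 12.4% of all probe sets. By direction, 10.1% of the 69 were lower and 5.80% higher in RA, against 11.9% and 11.8% of all probe sets. In LE135, 10.1% were lower and 4.35% higher, against 10.7% and 10.1% of all probe sets.

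Leaving out any single sample called none of the 69. Over all 20035 probe sets it called 231 to 671 in RA against DMSO and 220 to 742 in LE135 against DMSO. The adjusted p of MRPL3 then ran from 0.0793 to 0.347 in RA and from 0.0608 to 0.401 in LE135. Weighting the arrays by their spread gave DMSO 4 a weight of 0.168 and LE135 4 a weight of 0.259. In that fit MRPL3 was the 1 gene called, with log2 fold changes of -0.19 (adjusted p = 0.0277) in RA and -0.20 (adjusted p = 0.0242) in LE135. The shares of all probe sets called there were 6.80% in RA and 6.31% in LE135. Its F test called MRPL3 too, 1 of 69, against 8.18% of all probe sets.

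**Figure D4:**
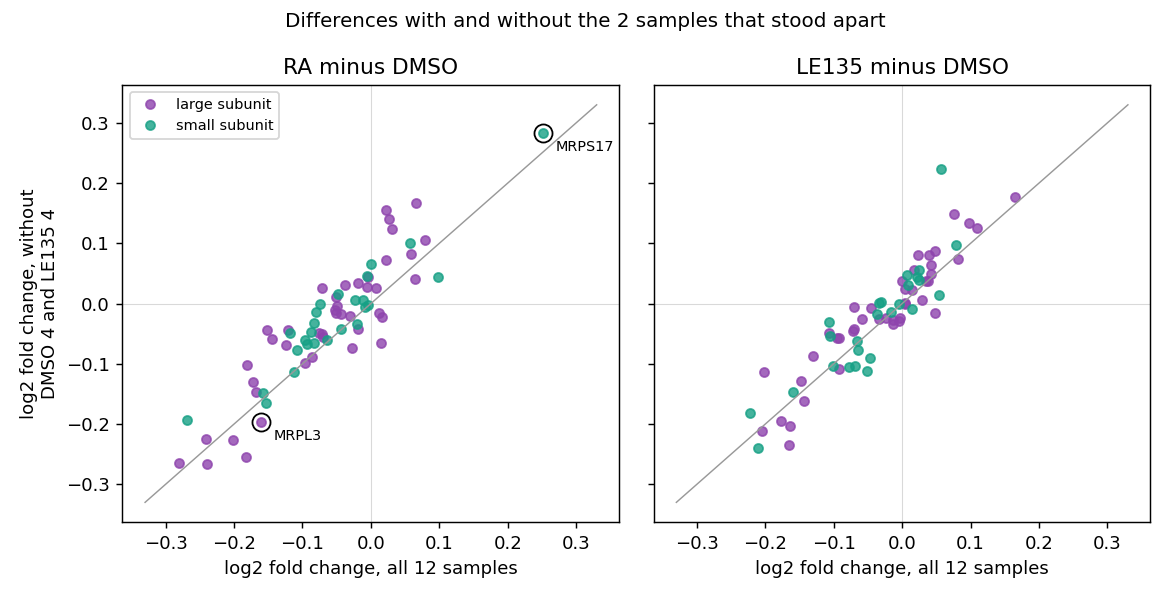
Log2 fold change of the 69 genes with all 12 samples (x axis) and without DMSO 4 and LE135 4 (y axis), for RA against DMSO and LE135 against DMSO; the line marks equal values. MRPL3 and MRPS17 pass the threshold in RA without the pair, at -0.20 and 0.28.

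Other members gave small differences of both signs. MRPL24 and MRPL20, relatives of bacterial proteins, were above DMSO in RA by log2 0.08 and 0.06. MRPS22 and MRPS25, proteins found only in mitochondrial ribosomes, were above it by 0.10 and 0.06. MRPS22 and MRPS16 are both linked in humans to combined respiratory chain deficiency. MRPS16 had 10.12, 10.08, 10.16 and 10.17 in RA, 10.09, 10.07, 10.13 and 10.27 in LE135, and 10.10, 10.07, 10.02 and 10.33 in DMSO. Its groups overlapped throughout, with log2 fold changes of -0.00037 in RA and 0.0088 in LE135. MRPS12, the relative of the bacterial decoding centre protein S12, had -0.05 in RA and -0.03 in LE135. The 3 genes named after bacterial S18 had log2 fold changes in RA of -0.0046 (MRPS18A), -0.12 (MRPS18B) and -0.0061 (MRPS18C).

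In RA against LE135 the widest differences were also short of the threshold. The widest was that of MRPS17, at 0.20 (SE 0.12, adjusted p = 0.785), in which LE135 4 was the lowest sample. Without DMSO 4 and LE135 4 it was 0.06. MRPL49, found only in mitochondrial ribosomes, had 5.19, 5.31, 5.37 and 5.41 in RA, 5.55, 5.44, 5.57 and 5.45 in LE135, and 5.57, 5.58, 5.25 and 5.55 in DMSO. Every RA sample was below every LE135 sample, and DMSO 3 fell among the RA samples. Its log2 fold change was -0.18 (SE 0.08, adjusted p = 0.646). Its mean over the 12 samples, 5.44, was below the median of 6.66 over all probe sets. MRPL22 had -0.14 and MRPL18 -0.11, MRPL28, MRPL27 and MRPL11 had 0.08, 0.08 and 0.07, and MRPS24, the relative of bacterial S3, had 0.09.

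In a split by descent, 42 genes were classed as relatives of bacterial ribosomal proteins and 27 as mitochondria-specific. MRPS18A and MRPS18B, though named after bacterial S18, were counted among the 27, and no split with them among the 42 was made. The 42 had a median log2 fold change of -0.05 in RA and -0.04 in LE135, and the 27 had -0.06 and -0.0038. Without DMSO 4 and LE135 4 the medians were -0.019 in RA and -0.028 in LE135 for the relatives of bacterial proteins, and -0.044 and -0.0013 for the mitochondria-specific genes. The median within-group SD of the 69 genes was 0.089 (0.046 to 0.27), against 0.139 over all named genes. The second probe sets of MRPL23, MRPL42 and MRPL45 gave log2 fold changes in RA of -0.04, -0.11 and -0.10, and none passed.

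Few genes that work with the mitochondrial ribosome passed. With all 12 samples, where 2.64% of all probe sets passed in RA and 2.09% in LE135, no gene passed in either drug among 14 measured assembly factors, 15 translation factors, 16 tRNA synthetases, 11 genes of mitochondrial DNA and RNA upkeep, 20 of import, 17 of the citrate cycle and mitochondrial mass, 8 biogenesis regulators and 57 cytosolic ribosomal proteins. The median log2 fold changes of the translation factors were -0.09 in RA and -0.06 in LE135, and those of the cytosolic ribosomal proteins 0.0030 and 0.02. Among 53 measured genes of oxidative phosphorylation, the median was -0.04 in RA and -0.03 in LE135, and 1 gene passed.

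That gene was CYCS, cytochrome c, the electron carrier of the respiratory chain. CYCS had 10.87, 10.87, 11.15 and 11.07 in RA, 11.09, 11.05, 10.93 and 11.06 in LE135, and 11.48, 11.43, 11.18 and 11.44 in DMSO. Every sample of both drugs was below every DMSO sample. CYCS fell in RA by 0.39 on the log2 scale (SE 0.09, adjusted p = 0.0388), and in LE135 its log2 fold change was -0.35 (adjusted p = 0.0664).

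Without DMSO 4 and LE135 4, 3 genes of these lists passed in RA, where 7.64% of all probe sets passed. None passed in LE135, against 5.13% of all probe sets. The 3 were 1 of 53 genes of oxidative phosphorylation, 1 of 8 biogenesis regulators and 1 of 17 of the citrate cycle and mitochondrial mass. CYCS fell by 0.37 on the log2 scale (adjusted p = 0.0450). YY1, a transcription factor of the list of biogenesis regulators, fell by 0.22 (SE 0.05, adjusted p = 0.0270), and VDAC3, an outer membrane channel, rose by 0.23 (SE 0.06, adjusted p = 0.0364). With all 12 samples YY1 had a log2 fold change of -0.15 (adjusted p = 0.378) and VDAC3 one of 0.13 (adjusted p = 0.669). The medians without the pair were -0.014 in RA and -0.020 in LE135 for oxidative phosphorylation, and -0.057 and -0.084 for the translation factors.

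Of 6 mitochondrial ribosome proteins listed under other symbols, DAP3, CHCHD1 and PTCD3 were measured, and PTCD3 had the widest difference. PTCD3, a pentatricopeptide repeat protein of the small subunit, had 9.90, 9.84, 9.96 and 9.96 in RA, 9.94, 9.96, 9.83 and 10.002 in LE135, and 10.29, 10.35, 10.25 and 9.99 in DMSO. DMSO 1 to 3 were above every drug sample, and DMSO 4 lay among them. With all samples its log2 fold change was -0.31 in RA (adjusted p = 0.0690) and -0.29 in LE135 (adjusted p = 0.0972). Without DMSO 4 and LE135 4, PTCD3 fell in both drugs, with -0.38 in RA (SE 0.06, adjusted p = 0.00419) and -0.39 in LE135 (SE 0.06, adjusted p = 0.00743).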

How the data were processed

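The values were the deposited log2 expression values of 12 arrays and 20080 probe sets, made with RMA per the submitters' processing notes (version not stated in the sources used here). The 45 control probe sets were left out, and 9084 of the rest had no symbol. The number of arrays, 4 per group, limits the precision. The samples were separate pools of animals.

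One limma model (limma 3.58.1, R 4.3.3) held all 12 samples, with a mean per treatment and adjustment over 20035 probe sets. Its code was run on simulated data with independent noise and shifts larger than any difference of the 69 genes. That run cannot show how well differences as small as theirs are found. All 69 symbols were in the RefSeq gene table, which was used for names only. Genes named were those past the threshold, the 3 of each subunit furthest above and below in each comparison, the 3 with the largest SD, and fixed genes (MRPL44 and MRPL58 among them are not analysed here). MRPL10, MRPL19 and MRPL40 were named after their values were seen, as were genes named to complete a count. The members and lists were chosen with earlier results of these data known. The split by descent was written from general knowledge after the data were available. Alternatives are listed in the closing section.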

Additional observations from a re-analysis of the deposited data

Results flagged for a closer look

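In 96 groups of 4 samples, from 30 genes named by rule and both subunit means, 9 held a sample far from the other 3. Chance alone gives about 1 in 20 such groups, but these genes were named partly for their spread and their differences, so that rate is no yardstick for them. Over all 69 genes it was 20 of 207 groups (9.66%), against 7.22% over all named genes. In 6 of the 9 groups from the genes named by rule, DMSO 4 was the distant sample, always high. It reached 10.08 for MRPL12 (next sample 9.68), 10.09 for MRPL16 (9.73), 6.95 for MRPL34 (6.47), 10.58 for MRPL43 (10.20), 10.92 for MRPS12 (10.68) and 11.11 for MRPS33 (10.82). LE135 4 was high for MRPL54 at 10.19 (next 10.06) and low for MRPS17 at 5.48 (next 5.98). DMSO 3 was low for MRPL49 at 5.25 (next 5.55).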

How the results depend on the processing

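Alternatives were a replicate block, only the 2 groups compared, array weights, a trended robust prior, arrays centred on their medians, all probe sets of a gene averaged, probe sets above the lower quartile, an unmoderated F test, each sample left out in turn, and both DMSO 4 and LE135 4 left out. Counting MRPS18A and MRPS30 with the large subunit, and leaving out DMSO 4 or LE135 4 alone, were chosen after seeing the data. The number of genes called changed in 4 cases: array weights called 1 in RA against DMSO, 1 in LE135 against DMSO and 1 by the F test, and leaving out both samples called 2 in RA. Over all probe sets, the 528 calls in RA and 418 in LE135 became 1362 and 1265 with array weights, 1530 and 1027 without both samples, and 340 and 111 with only the 2 groups compared. Single omissions called 0 in every comparison. The cause was not tested.

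Across single omissions the median ran from -0.07 to -0.03 in RA against DMSO, -0.05 to -0.0011 in LE135 against DMSO and -0.04 to -0.0091 in RA against LE135. With array weights it was -0.02, -0.0071 and -0.0067 in the same order of comparisons.

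Uncalled differences near 0 changed sign. With array weights these were, in RA against DMSO, MRPS12 (0.011), MRPS16 (0.066) and MRPS18C (0.042). Without both samples they were MRPS12 (0.017), MRPS16 (0.065) and MRPS18C (0.046) in RA, and MRPS12 (0.0019) in LE135. Centring gave MRPS18B 0.00079 in LE135. Over omissions, RA against DMSO ran from -0.077 to 0.017 for MRPS12, -0.038 to 0.065 for MRPS16, -0.030 to 0.013 for MRPS18A and -0.031 to 0.046 for MRPS18C. LE135 against DMSO ran from -0.15 to 0.035 for MRPL12, -0.062 to 0.034 for MRPS12, -0.035 to 0.075 for MRPS16, -0.00099 to 0.22 for MRPS17 (the upper value without both samples), -0.0038 to 0.045 for MRPS18A, -0.070 to 0.065 for MRPS18B, -0.00016 to 0.077 for MRPS18C and -0.0011 to 0.10 for MRPS22.

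The numbers 1 to 4 are not stated to pair the samples, and the main model did not pair them. Same-numbered deviations correlated at -0.17 to 0.61, 7 of 12 pairs over 0.1, and 4 of 12 samples correlated best with their own number. The highest value, 0.61, was that of DMSO 4 with LE135 4. Such correlations cannot decide whether the pools were paired. With the replicate block 0 of 69 genes were called in each comparison, and over all probe sets 597 were called in RA against DMSO, against 528 without it. The 4 pools a group limit the precision to the intervals given.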
